A study of Mus musculus and Homo sapiens with 107 samples.

Results

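A set of 8 genes of the Wnt/β-catenin pathway was followed in 2 human lung cancer lines given an inhibitor of SWI/SNF chromatin remodelling. They were taken by identifier: AXIN2, RNF43 and ZNRF3, which restrain the pathway from inside or at the surface of the cell, the secreted proteins DKK1 and DKK3, and the transcription factors TCF7, TCF7L2 and LEF1. All 8 members were present among the 22842 gene identifiers that the tables of both lines share. A549 and H1299 are established lines of non-small-cell lung cancer, labelled as wild type, and each gave 3 libraries from cells kept for 12 h with 5 µM BRM014 and 3 from cells kept for the same time with DMSO, the solvent. BRM014 blocks the ATPases BRM and BRG1, of which each SWI/SNF complex holds 1. Both lines are known to lack functional BRG1, so BRM is the ATPase of this pair that remains in them. These 12 libraries belong to a series of 107 samples on the inhibition of SWI/SNF, and the other 95 were not analysed here. The titles give DMSO at 0.05% and the treatment field gives 0.5%. A549 was grown in F12-K medium and amplified for 9 PCR cycles, H1299 in RPMI and for 8 cycles, so line, medium and cycles cannot be told apart. Whether the 3 libraries of a group stem from separate cultures is not said in the labels, and the p-values reflect only how these libraries vary, which may be technical.

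In the pathway, Wnt ligands bind Frizzled receptors and the co-receptors LRP5 and LRP6, which stops a destruction complex from removing β-catenin. β-catenin then enters the nucleus and acts with TCF and LEF proteins at target genes. Several targets feed back on the pathway: AXIN2 is a scaffold of the destruction complex, RNF43 and ZNRF3 are membrane ubiquitin ligases that clear Frizzled from the cell surface, and DKK1 blocks the co-receptors.

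Total counts per A549 library ranged from 40684360 to 50177678 in the DMSO group and from 42417643 to 44910378 in the BRM014 group. For H1299 the ranges were 28412113 to 40072734 and 30602193 to 41780029. A pair of the A549 BRM014 libraries share a column header and carry no usable replicate number. They are called a and b here, in column order, and differed from each other by more than sampling noise. Levels are in CPM, the usual depth-normalised count, with TMM scaling within a line, and are given for the libraries in the order replicate 1, 2 and 3 (a, b and 3 for A549 with BRM014). Rose, fell and changed are used for genes with an adjusted p below 0.05 in edgeR's quasi-likelihood test over all genes of the line. Levels are compared between groups for the same gene, never between genes, since gene lengths were not used here.

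**Figure D1:**
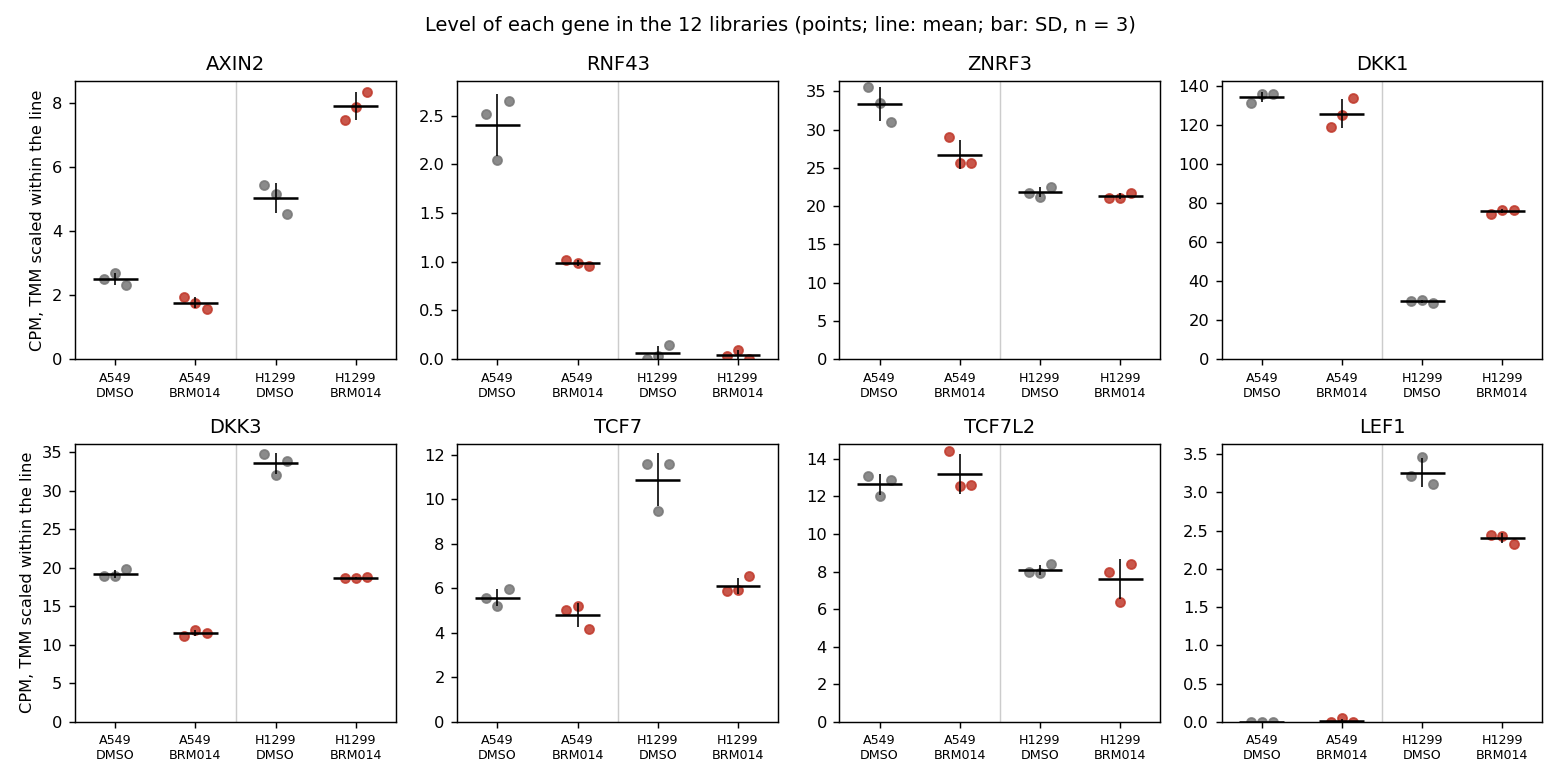
Each panel is a gene, with the 3 libraries of each line and treatment as points (grey DMSO, red BRM014), the mean as a horizontal line and the SD as a vertical line. The vertical axis is CPM scaled within the line and starts at 0. DKK1 sits at 28.8 to 30.1 CPM in H1299 with DMSO and at 74.7 to 76.5 with BRM014, while its A549 groups overlap.

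With BRM014, 4 of the 7 members that could be tested in A549 fell and 0 rose, and in H1299 3 of 7 fell and 2 rose. Among all genes tested, 19.4% fell and 17.7% rose in A549, and 12.7% fell and 9.29% rose in H1299. The genes that fell in A549 were AXIN2, RNF43, ZNRF3 and DKK3. In H1299 DKK3, TCF7 and LEF1 fell and AXIN2 and DKK1 rose; the LEF1 call was lost in 8 of 14 alternatives. At an unadjusted p below 0.05 in edgeR, and in DESeq2 or limma-voom, the number of members that rose in A549 was also 0. The median log2 fold change of the tested members was -0.32 in A549, where that of all genes was 0.02, and -0.10 in H1299, where that of all genes was 0.00. The median size regardless of sign was 0.32 against 0.16 in A549 and 0.64 against 0.10 in H1299. The genes were chosen with earlier results of these data known, so these counts and medians cannot show that Wnt genes respond more than others. The member not tested in A549 was LEF1, with 2 counts in 6 libraries, and in H1299 it was RNF43, with 10.

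AXIN2 (ENSG00000168646), widely read as a direct target of β-catenin, moved in opposite directions in the lines. In A549 it was at 2.50, 2.70 and 2.33 CPM with DMSO and at 1.94, 1.77 and 1.58 CPM with BRM014. All BRM014 libraries lay below all DMSO libraries, on counts of 68 to 115 per library. AXIN2 fell to 0.705 of its DMSO level, a log2 fold change of -0.50 ± 0.13 (standard error; edgeR, adjusted p = 0.0102). In H1299 AXIN2 went from 5.44, 5.16 and 4.53 CPM to 7.49, 7.89 and 8.36 CPM. Here every BRM014 library was above every DMSO library, and the rise was 1.56-fold (0.64 ± 0.10 as log2 fold change and standard error; edgeR, adjusted p = 1.09e-05). The log2 difference between the responses, H1299 minus A549, was 1.17 ± 0.17 (standard error), and edgeR's interaction test gave an adjusted p of 1.45e-05. Of the 13675 genes tested in both lines, 119 (0.87%) fell in A549 and rose in H1299, and AXIN2 was 1 of them.

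RNF43 (ENSG00000108375) had the lowest log2 fold change of the tested members in A549. Its libraries were at 2.52, 2.05 and 2.65 CPM with DMSO and at 1.01, 0.983 and 0.952 CPM with BRM014. The groups were apart, and the BRM014 libraries lay close together on 41 to 45 counts each. RNF43 fell to 0.407 of its DMSO level (-1.30 ± 0.15 as log2 fold change and standard error; edgeR, adjusted p = 3.81e-05), and 3.03% of the A549 genes had a lower log2 fold change. In H1299 RNF43 was close to absent, with 0, 1 and 4 counts in the DMSO libraries and 1, 4 and 0 with BRM014. At this depth a response of RNF43 in H1299 was not detectable: the ratio of its counts per total, BRM014 over DMSO, was 0.958 with a 95% exact interval of 0.221 to 4.16, which covers counting error only.

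ZNRF3 (ENSG00000183579), the paralogue of RNF43, had 2152 to 4484 counts per group over both lines. In A549 it was at 35.5, 33.5 and 31.0 CPM with DMSO and at 29.0, 25.7 and 25.6 CPM with BRM014. The groups did not overlap, and ZNRF3 fell to 0.802 of its DMSO level (-0.32 ± 0.07 as log2 fold change and standard error; edgeR, adjusted p = 0.00362). In H1299 the libraries ran from 21.2 to 22.6 CPM with DMSO and from 21.0 to 21.7 CPM with BRM014, and the groups overlapped. The log2 fold change there was -0.04 with a 95% interval of -0.16 to 0.09 (adjusted p = 0.746 in edgeR), so a change of the A549 size lay outside the interval. The responses differed by 0.31 on the log2 scale, H1299 minus A549 (standard error 0.09, adjusted p = 0.0154 in edgeR). AXIN2, RNF43 and ZNRF3 each fell in A549, as did DKK3 and 19.4% of all genes tested there. In H1299 AXIN2 rose, ZNRF3 did not pass the test and RNF43 had too few counts.

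DKK1 (ENSG00000107984), the secreted antagonist of LRP5 and LRP6, had the largest rise of the members. In H1299 its DMSO libraries were at 29.9, 30.1 and 28.8 CPM and its BRM014 libraries at 74.7, 76.5 and 76.3 CPM. The spread within each group was small, with an SD of 0.691 and 0.972 CPM (n = 3). DKK1 rose 2.56-fold (1.36 ± 0.04 as log2 fold change and standard error; edgeR, adjusted p = 2.09e-23), and 0.0467% of the 14986 genes tested in H1299 had a higher log2 fold change. In A549 the libraries were at 132, 136 and 136 CPM with DMSO and at 119, 125 and 134 CPM with BRM014. These groups overlapped, and the log2 fold change was -0.10 with a 95% interval of -0.20 to 0.01 (adjusted p = 0.13 in edgeR). Without A549 BRM014 replicate 3 it passed the threshold as a fall (log2 fold change -0.14, adjusted p = 0.0287), and so it did in the joined fit of all 12 libraries (-0.12, adjusted p = 0.0327). Either way the A549 change was small, and the responses of the lines differed by 1.48 on the log2 scale (standard error 0.07, adjusted p = 5.72e-14 in edgeR).

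DKK3 (ENSG00000050165), a divergent member of the Dickkopf family that is not established as a blocker of the same co-receptors, fell in both lines. In A549 it went from 18.9, 19.0 and 19.9 CPM to 11.1, 11.9 and 11.5 CPM, and in H1299 from 34.8, 32.1 and 33.9 CPM to 18.7, 18.7 and 18.8 CPM. In each line the treated libraries lay well below the controls. The log2 fold change was -0.74 in A549 (standard error 0.06, adjusted p = 1.96e-06 in edgeR). In H1299 it was -0.84 (standard error 0.06, adjusted p = 1.53e-14 in edgeR). These are levels of 0.597 and 0.558 of the DMSO level. The difference between the responses was -0.07 with a 95% interval of -0.25 to 0.10 (adjusted p = 0.605 in edgeR). DKK3 was the 1 member that fell in both lines, as did 856 of the 13675 genes tested in both (6.26%).

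**Figure D2:**
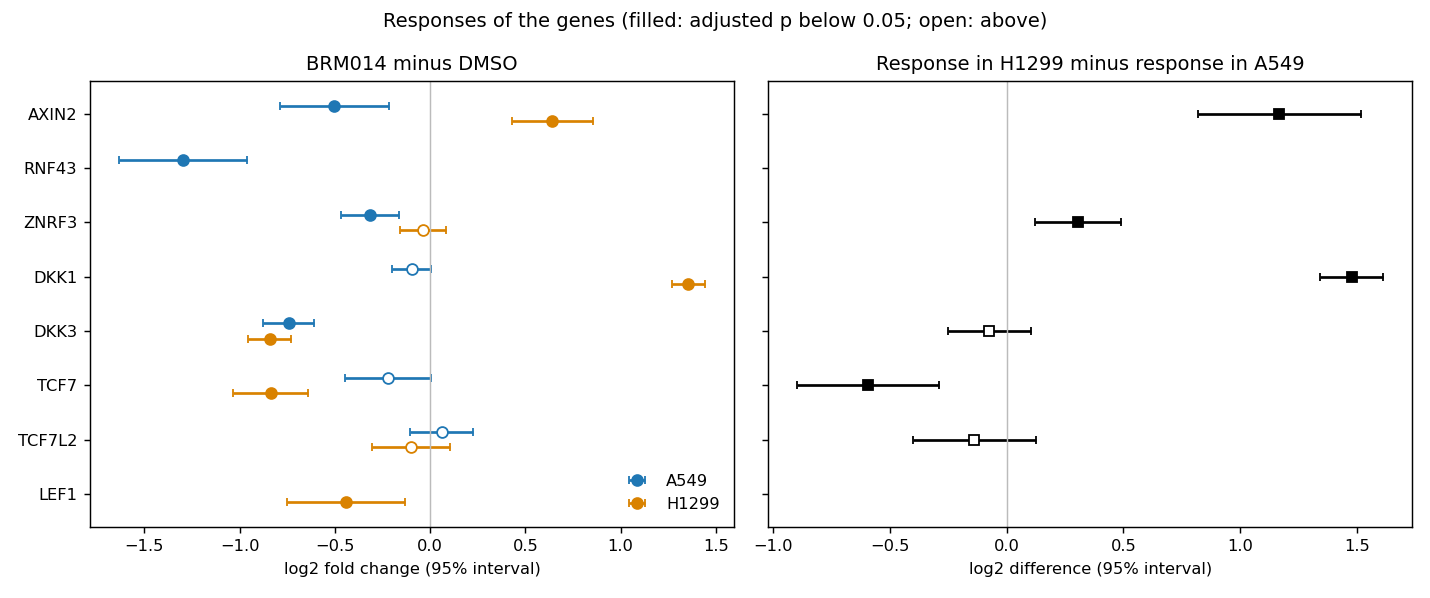
On the left, log2 fold changes of BRM014 against DMSO with 95% intervals for A549 (blue) and H1299 (orange). On the right, the difference of the responses, H1299 minus A549, for the 6 genes measured in both lines. Filled symbols have an adjusted p below 0.05. AXIN2 lies at -0.50 and 0.64, on opposite sides of 0, while DKK3 lies at -0.74 and -0.84.

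Of the DNA-binding partners of β-catenin, TCF7 (ENSG00000081059, also called TCF-1) fell in H1299. Its libraries were at 11.6, 9.49 and 11.6 CPM with DMSO and at 5.88, 5.91 and 6.54 CPM with BRM014. The lowest DMSO library, replicate 2, was still above every BRM014 library. TCF7 reached 0.559 of its DMSO level (-0.84 ± 0.10 as log2 fold change and standard error; edgeR, adjusted p = 1.71e-08). In A549 the values were 5.59, 5.22 and 5.95 CPM with DMSO and 5.00, 5.20 and 4.18 CPM with BRM014. These groups were barely apart, and the log2 fold change of -0.22 (95% interval -0.45 to 0.00) did not pass the test (adjusted p = 0.116 in edgeR). The response of TCF7 was more negative in H1299 by -0.59 on the log2 scale (standard error 0.15, adjusted p = 0.00515 in edgeR). Without library a or library b alone, the difference was -0.57 and -0.52 (adjusted p = 0.00706 and 0.0251 in edgeR). Without both, a setting added after seeing the data, the A549 BRM014 group is 1 library, the lowest of its 3 for TCF7 and assumed to vary like the other groups. The difference was then -0.39 (adjusted p = 0.145 in edgeR), and the log2 fold change in A549, -0.45 (adjusted p = 0.0292), is that of this single library.

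TCF7L2 (ENSG00000148737, also called TCF-4) passed no test of treatment. Its A549 libraries ran from 12.0 to 13.1 CPM with DMSO and from 12.5 to 14.4 CPM with BRM014, and its H1299 libraries from 7.92 to 8.39 and from 6.39 to 8.39 CPM. The groups overlapped in both lines, and in each line 1 BRM014 library stood apart from the others: a in A549, on the high side, and replicate 2 in H1299, on the low side. The log2 fold change was 0.06 in A549 (95% interval -0.10 to 0.22, adjusted p = 0.568 in edgeR). In H1299 it was -0.10 (95% interval -0.31 to 0.11, adjusted p = 0.547 in edgeR). Without those libraries the signs turned, to -0.02 in A549 and 0.02 in H1299, so no direction can be given.

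LEF1 (ENSG00000138795), the remaining factor of the family measured, was found in H1299 alone at a level that could be tested. There it was at 3.21, 3.46 and 3.10 CPM with DMSO and at 2.44, 2.43 and 2.32 CPM with BRM014, on 75 to 127 counts per library. The groups did not overlap, and the fall to 0.736 of the DMSO level passed the threshold (-0.44 ± 0.15 as log2 fold change and standard error; edgeR, adjusted p = 0.0331). This call is weak: it was lost in 8 of 14 alternatives, among them DESeq2 (adjusted p = 0.0894) and each omission of 1 library, where the adjusted p was 0.0523 to 0.116, with a log2 fold change of -0.47 to -0.40 throughout. In A549 LEF1 had 0 counts in each DMSO library, which allows up to 0.0219 CPM over the group, and 2 counts with BRM014, both in library b.

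Groups that did not overlap were common. In A549 the DMSO and BRM014 libraries were apart for 5 of the 7 tested members, and for 48.2% of all genes tested. In H1299 they were apart for 5 of 7, and for 35.2% of all genes. Of all genes tested, 37% changed in either direction in A549 and 22% in H1299, beside the 4 and 5 members called. The members were chosen with earlier results of these data known, so these counts cannot show that Wnt genes respond more than others.

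**Figure D3:**
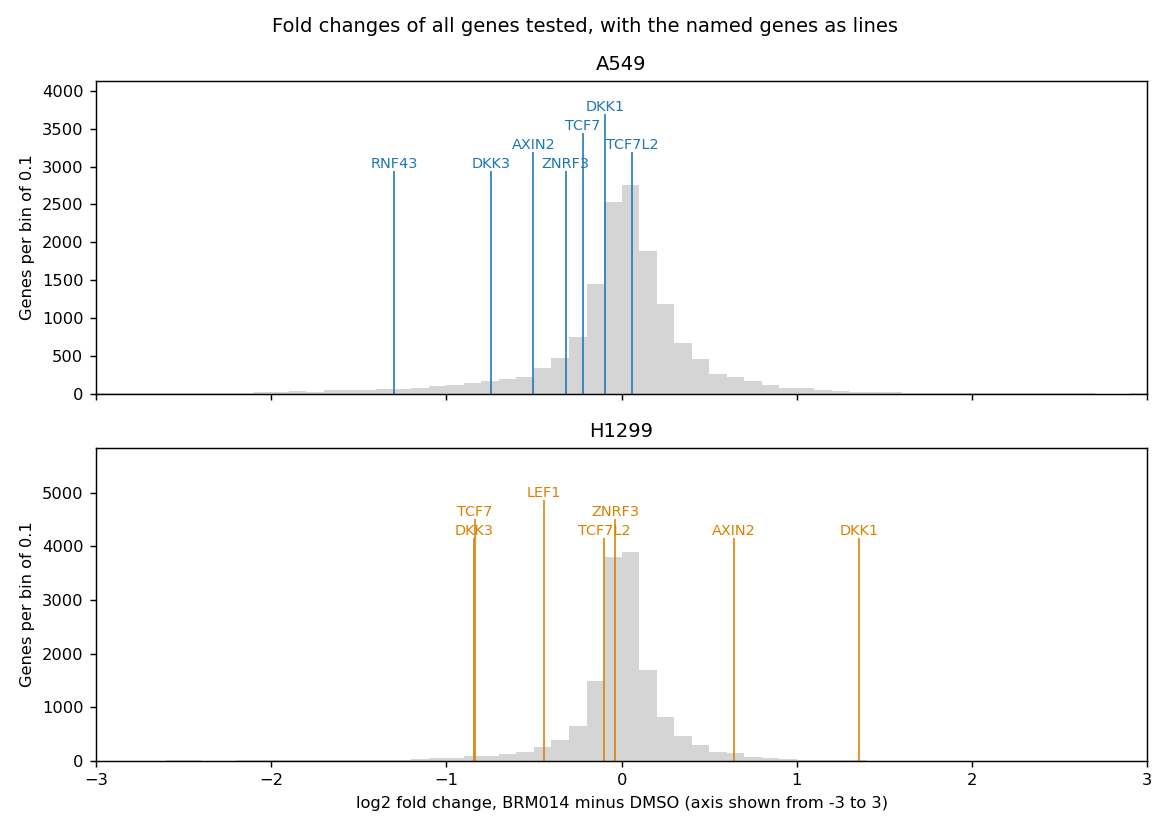
Grey bars count all genes tested by log2 fold change of BRM014 against DMSO, 15188 in A549 and 14986 in H1299, and coloured lines mark the 7 tested members of each line; genes beyond the limits of the axis are not shown. In H1299 DKK1 at 1.36 and AXIN2 at 0.64 stand on the right flank and DKK3 and TCF7, both at -0.84, on the left, while ZNRF3 and TCF7L2 lie in the central peak.

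The difference of the responses passed the interaction test for 4 of the 8 members, AXIN2, DKK1, TCF7 and ZNRF3, where 19.5% of 16466 genes passed it. It was more positive in H1299 for AXIN2, DKK1 and ZNRF3 (10.2% of genes) and more negative for TCF7 (9.25%). DKK3 and TCF7L2 did not pass it. LEF1 and RNF43 entered this test through the line that expresses each of them, and with so few counts in the other line the test says nothing about them.

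The levels of the lines in DMSO were compared in a joined fit of the 12 libraries, with CPM scaled over all of them, so that these levels differ somewhat from those scaled within a line. All 8 members differed between the lines at an adjusted p below 0.05 in edgeR, as did 85.7% of all genes, so this count is near the background. AXIN2, DKK3, TCF7 and LEF1 were higher in H1299 (42.9% of all genes), and DKK1, TCF7L2, RNF43 and ZNRF3 were higher in A549 (42.8%). LEF1 and RNF43 passed the filter on low counts only through the line in which they were expressed and had to differ.

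For LEF1 and RNF43 the lines were near opposites. LEF1 had 322 counts in the H1299 DMSO libraries and 0 in those of A549, at least 147-fold higher in H1299 per total count when A549 is set at 3 counts over the group and the 322 counts are taken as exact. The 95% exact interval of that ratio, which covers counting error only, starts lower, at 119. RNF43 had 327 counts in the A549 DMSO libraries and 5 in those of H1299 (0, 1 and 4), a ratio of 47.7 per total count with a 95% exact interval of 20.2 to 148, again for counting error only. The H1299 libraries set this value: the fitted log2 difference, H1299 minus A549, was -5.70, and it was -7.33 without H1299 DMSO replicate 3 and -5.01 without replicate 1. Each line thus lacked, or nearly lacked, 1 member that the other expressed.

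Among the members measured in both lines, DKK1 had the widest gap in DMSO. It stood at 147 ± 3.74 CPM in A549 and at 27.5 ± 0.714 CPM in H1299 on the joined scale (SD, n = 3), a log2 difference of -2.41 (H1299 minus A549, standard error 0.05, adjusted p = 1e-23 in edgeR). With BRM014 the means were 135 ± 7.92 and 70.7 ± 1.29 CPM, so the A549 level was 5.33 times the H1299 level in DMSO and 1.91 times with the inhibitor. ZNRF3 and TCF7L2 were also higher in A549, by 1.79 and 1.83 times in DMSO (log2 differences -0.84 and -0.87, adjusted p = 4.53e-12 and 1.96e-09 in edgeR). The DMSO libraries of the lines did not overlap for any of the 8 members, nor for 86.6% of all genes tested. LEF1 and RNF43 passed the filter only through the line that expresses each, so their libraries had to be apart.

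AXIN2 was at 2.73 ± 0.206 CPM in A549 and at 4.70 ± 0.451 CPM in H1299 with DMSO on the joined scale (SD, n = 3; log2 difference 0.80, standard error 0.12, adjusted p = 1.04e-06 in edgeR). With BRM014 it was at 1.89 ± 0.192 and 7.37 ± 0.427 CPM, and the H1299 level went from 1.72 to 3.9 times that of A549. TCF7 followed the other course. In DMSO it was at 6.09 ± 0.398 CPM in A549 and at 10.1 ± 1.15 CPM in H1299 (log2 difference 0.73, standard error 0.10, adjusted p = 2.48e-07 in edgeR), 1.67 times as high. With BRM014 the means were 5.15 ± 0.603 and 5.69 ± 0.345 CPM, a ratio of 1.11, and the libraries of the lines overlapped. DKK3 kept nearly the same ratio, 1.49 in DMSO and 1.42 with BRM014, H1299 over A549.

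**Figure D4:**
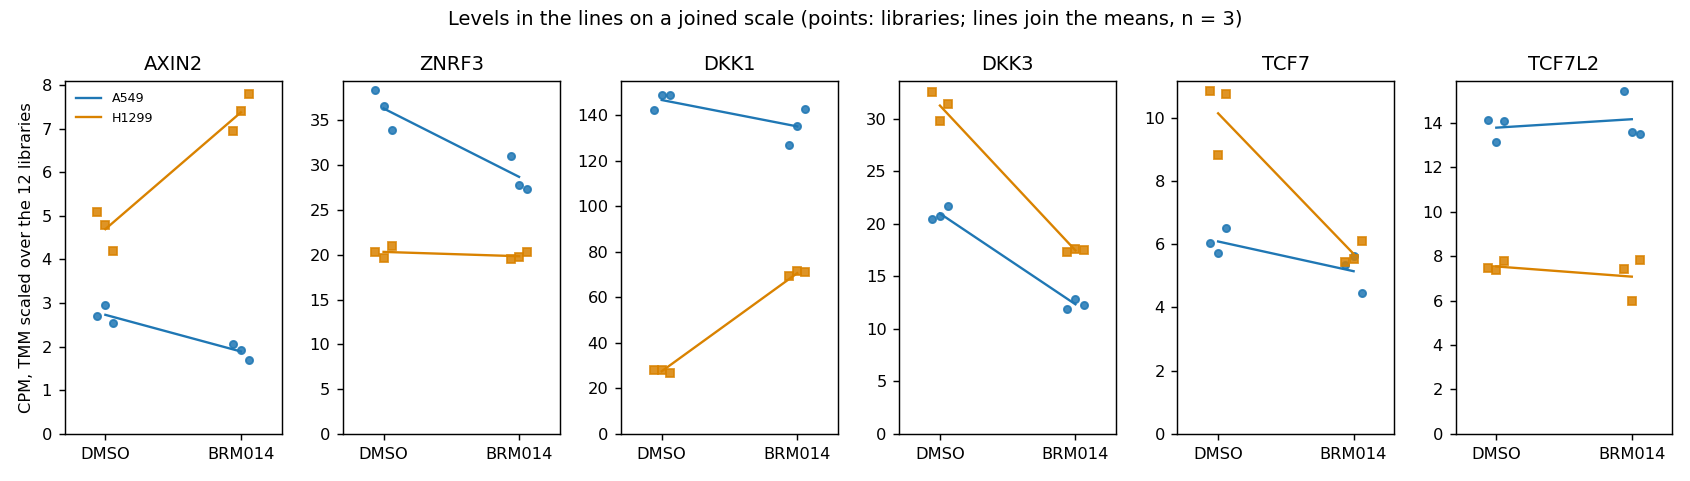
CPM scaled over all 12 libraries for the 6 members measured in both lines, with A549 in blue circles and H1299 in orange squares; lines join the group means and each axis starts at 0. The lines draw apart for AXIN2 (ratio 1.72 to 3.9), draw together for DKK1 (5.33 to 1.91, A549 over H1299) and TCF7 (1.67 to 1.11), and run side by side for DKK3.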

How the data were processed

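RNA-seq of 12 libraries, 3 for each line and treatment, was used. The authors deposited raw counts per Ensembl gene identifier with 1 table per line. The submitters' processing notes list hg38 and the tools STAR 2.7.3a, Bowtie 1.2.2, featureCounts, cutadapt 1.14 and DESeq2. The sources used here do not give what each did, the annotation or the strand setting; hence counts of overlapping or antisense genes are uncertain. Per the labels' protocols, libraries were stranded total RNA depleted of rRNA. Spike-in rows were not used here, and every difference is relative to the rest of the library.

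The identifiers and symbols of the 8 members came with the choice of genes, which was made, like the lists and tests, with earlier results of these data known. All 8 were named. The name tables at hand matched 0 identifiers, so 94 other Wnt genes listed by symbol, markers of cell types, gene positions and promoter sequences were not analysed here.

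With edgeR 4.0.16 (R 4.3.3), filterByExpr selected the genes (at least 10 counts in a median library, 15 in total) and TMM factors scaled the libraries. Groups were compared by the two-sided quasi-likelihood test, with p-values adjusted over all genes by Benjamini-Hochberg at 0.05. Responses came from a fit per line, and the difference of responses and the DMSO comparison from a fit of all 12 libraries. The standard error is the log2 fold change divided by the root of its F statistic. The steps were tested on simulated data. Pairs of replicates gave a chi-square per degree of freedom of 2.2 to 11.1 over genes with at least 20 counts. No pair thus differed by sampling noise alone, but technical repeats cannot be told from separate cultures this way. Same-numbered H1299 libraries deviated together with r of -0.0475, -0.0287 and 0.00961, which gives no sign of pairing by number. Whether such libraries were set up together cannot be told from these values. Pairing was not examined in A549, where the libraries that share a header carry no usable replicate number, and its libraries were tested as unpaired. Alternatives were other scalings (DESeq2 size factors, library totals), DESeq2 1.42.0, limma-voom (limma 3.58.1), other filters, a replicate block and leaving out each library; leaving out both A549 libraries that share a header was added after seeing the data.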

Additional observations from a re-analysis of the deposited data

Results flagged for a closer look

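The lines responded differently to BRM014 for 4 of the 8 members by the interaction test in edgeR, which 19.5% of 16466 genes passed. The log2 differences, H1299 minus A549, were 1.17 for AXIN2 (adjusted p = 1.45e-05), 1.48 for DKK1 (adjusted p = 5.72e-14), -0.592 for TCF7 (adjusted p = 0.00515) and 0.306 for ZNRF3 (adjusted p = 0.0154). AXIN2 is the 1 member that passed the threshold in opposite directions, lower in 3 of 3 A549 libraries and higher in 3 of 3 H1299 libraries than every control. Over 19 alternatives the difference ranged from 1.08 to 1.33 for AXIN2, from 1.39 to 1.51 for DKK1 and from 0.262 to 0.374 for ZNRF3, past the threshold in each; that of TCF7 ranged from -0.692 to -0.388 and passed it in 18, the exception being the setting that leaves 1 BRM014 library in A549. Medium and PCR cycles differ along with the line, and their part in these differences cannot be told apart.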

How the results depend on the processing

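The number of members changed was 4 to 5 over 14 alternatives in A549 (4 in the reported test) and 4 to 5 over 14 in H1299 (5). It was 3 to 4 over 19 for the difference of responses (4) and 8 over 19 for the lines in DMSO (8). In the reported tests, 37%, 22%, 19.5% and 85.7% of all genes passed, in the same order, so the count in DMSO is near the background. With 1 library omitted, the numbers were 4 to 5, 4, 4 and 8. Of the 8 in DMSO, LEF1 and RNF43 passed a low-count filter only through the line that expresses each, and had to differ. With the replicate block, H1299 gave 5 members, the same ones; no block was possible in A549, where 2 libraries carry no number. AXIN2, DKK3, RNF43 and ZNRF3 in A549, and AXIN2, DKK1, DKK3 and TCF7 in H1299, kept their direction and call in all 14 alternatives. With 1 library omitted, the log2 fold change of TCF7L2 was -0.0222 to 0.0963 in A549 and -0.18 to 0.0214 in H1299, and the RNF43 difference of responses -0.179 to 2.85. The sign turned for TCF7L2 in A549 without library a (-0.0222) and without both libraries that share a header (-0.028). It also turned for TCF7L2 in H1299 without BRM014 replicate 2 (0.0214). Without that H1299 library the RNF43 difference of responses turned as well (-0.179 against 1.22). RNF43 had only 10 counts over all H1299 libraries, and the library left out held 4 of them. Scaling by library totals shifted the median gene by 0.225 (log2) between the lines in DMSO, and the medians of the responses by 0.0499 in A549 and 0.0325 in H1299; each member kept its sign. Of called genes, 60.9% were then higher in A549 (47.7% with TMM) and 58.4% in H1299 (42.2%). Depth limits LEF1 in A549 and RNF43 in H1299.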

Other observations

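Ratios of the counts of a pair of members within a library do not depend on how libraries are scaled. The pairs were chosen after their values were seen, and the size of a ratio also depends on gene length, so that only its change can be read. The DKK1 to DKK3 ratio was 0.85 to 0.937 in the H1299 DMSO libraries and 3.99 to 4.08 with BRM014, 4.58 times as high on average. In A549 it was 6.85 to 7.17 and 10.5 to 11.6, a change of 1.57 times. The groups were apart in both lines, and the A549 change came with a fall of DKK3 and a DKK1 level that did not pass the test. The TCF7 to TCF7L2 ratio was 1.2 to 1.45 in H1299 with DMSO and 0.735 to 0.925 with BRM014. In A549 it was 0.427 to 0.462 and 0.331 to 0.415. The AXIN2 to ZNRF3 ratio moved up in H1299, from 0.201 to 0.25 with DMSO to 0.356 to 0.385 with BRM014, and was 0.0702 to 0.0805 and 0.0617 to 0.069 in A549, where both genes fell. The RNF43 to ZNRF3 ratio in A549 was 0.0611 to 0.0855 with DMSO and 0.035 to 0.0383 with BRM014, so RNF43 fell by more than its paralogue.

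Over the 12 libraries and 13675 genes, the gene whose log2 CPM was most like that of DKK1 was ENSG00000115738, with a Pearson r of 0.997, and the gene most like ZNRF3 was ENSG00000173511, with an r of 0.996. The tables give no symbols for them. These correlations are descriptions over libraries of only 2 lines, so any gene with a like gap between the lines scores high: 1125 genes had an r above 0.95 with ZNRF3 and 44 with DKK1.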
